A study of Mus musculus with 4 samples.

Results

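The nuclear genes that encode the subunits of the mitochondrial respiratory chain were examined complex by complex in mouse macrophages before and after inflammatory stimulation. Members were the gene symbols of the deposited count tables that began with Nduf and a subunit letter and digit (complex I), with Uqcr or equal to Cyc1 (complex III), with Cox4 to Cox8 and a letter (complex IV) or with Atp5 (complex V), leaving out names ending in -ps. The rule used names only and no measured value. It found 80 of 18256 listed genes, of which 39 belonged to complex I, 9 to complex III, 15 to complex IV and 17 to complex V.

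The cells were macrophages grown from wild-type mouse bone marrow for 7 days in 20 ng/ml macrophage colony-stimulating factor (MCSF), the cytokine that turns marrow progenitors into macrophages. Cells of the M0 group stayed unstimulated in MCSF, and cells of the M1 group received 20 ng/ml interferon-gamma and 100 ng/ml of the bacterial product lipopolysaccharide (LPS) for 24 h. Each group had 2 libraries of total RNA depleted of ribosomal RNA. The labels give 48 h for the medium change in both groups and do not say whether MCSF stayed in the M1 medium. They give no strain, sex or age and do not say that the libraries of a group came from separate mice or cultures. The p-values given here reflect no more than the differences among these 4 libraries, which could be technical.

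The respiratory chain passes electrons from NADH and succinate to oxygen and pumps protons across the inner mitochondrial membrane, and ATP synthase (complex V) uses that gradient to make ATP. Complexes I, III, IV and V each combine subunits encoded in the nucleus with a few encoded by mitochondrial DNA, so they draw on both genomes. Macrophages stimulated with LPS and interferon-gamma are known to shift their energy metabolism towards glycolysis, and their respiratory chain is known as a source of reactive oxygen.

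Library totals were 15921466 to 18987705 counts, and 3 counts in a library correspond to 0.144 to 0.185 CPM, the count scaled to library size with TMM factors. Of the macrophage markers, all 8 were detected, with summed levels of 20679 and 22987 CPM in M0 and 29696 and 29209 CPM in M1, most of it from Lyz2. Of these 8, 4 were higher in M1 (Adgre1, Itgam, Cd14 and Fcgr1) and 2 were lower (Cd68 and Mertk). Lyz2 and Csf1r, the MCSF receptor, did not pass. Of all tested genes 24.2% were higher and 24.0% lower. The T and NK cell markers summed to at most 0.959 CPM, with 2 of 6 at 0 in every library, and the erythroid markers to at most 0.463 CPM. The B and plasma cell markers reached at most 5.37 CPM with 2 of 5 at 0 in every library, and the dendritic cell markers at most 10.1 CPM. Of 5 tested dendritic cell markers 2 were higher in M1 (Ccr7 and Xcr1) and 3 were lower (Zbtb46, Cd209a and Siglech). Each had at most 6.18 CPM in any library. The calls of Xcr1, Zbtb46 and Cd209a were lost when some single library was left out. Neutrophil markers summed to 239 and 250 CPM in M0 and to 150 and 110 CPM in M1. Of the 8, 6 were lower in M1 and 1 was higher, against 24.0% and 24.2% of all tested genes. Among these markers Retnlg was at 0 in both M1 libraries, Elane in M1 replicate 1 and Mpo in M1 replicate 2. Stromal markers summed to 713 and 691 CPM in M0 and to 457 and 510 CPM in M1. Of the 5 tested, Col1a1 and Col1a2, which hold most of that sum, were lower (log2 -0.61 and -0.57). Pdgfrb and Dcn were higher (log2 0.96 and 1.70), and Cdh11 did not pass (log2 -0.37). Lum was not tested and was at 0 in M0 replicate 1 and M1 replicate 2. The Pdgfrb call was lost without either M0 replicate or M1 replicate 2 (edgeR adjusted p up to 0.228), and that of Dcn without M0 replicate 2 (0.0754). The part of these neutrophil and stromal levels in the results below was not tested.

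Subunit transcripts were more often higher than lower in M1. Of the 77 members that passed the low-count filter, 28 (36.4%) were higher in M1 and 1 (1.30%) was lower, in the edgeR quasi-likelihood test with Benjamini-Hochberg adjusted p under 0.05 over all 12966 tested genes. Among all tested genes, 24.2% were higher and 24.0% were lower (48.2% in either direction). The remaining 48 tested members did not pass. Both M1 libraries lay above both M0 libraries for 41 members (53.2%), against 37.0% of all tested genes, and below both for 10 members (13.0%), against 38.0%. No called member was doubled or halved, where 9.93% of all tested genes were called with at least a doubling and 11.6% with at least a halving. The median log2 fold change (M1 over M0) was 0.26 over the members and -0.016 over all tested genes.

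The direction of small changes depended on how libraries were scaled. With plain library totals in place of TMM factors, the median of all tested genes shifted by -0.25 on the log2 scale, and 11 members were called higher and 8 lower. Upper-quartile factors shifted the median of all genes by -0.10 and gave 18 members higher and 3 lower. Relative to the median of all genes, the members' median was 0.28 under TMM factors, 0.28 under library totals and 0.28 under upper-quartile factors. A change of scaling moves all genes by nearly the same amount. This difference therefore stays the same by construction and cannot show whether the rise depends on the scaling. No member's call changed sign under any alternative. Leaving out M0 replicate 1 left 7 members higher, and leaving out M0 replicate 2 left 12, in fits where the lone M0 library was assumed to vary like the M1 libraries. In the same order 1691 and 1832 of all tested genes were then higher, against 3140 with all libraries. In all, 6 calls passed the threshold in every leave-one-out fit and under every scaling and tool tried, and these belonged to Ndufs4, Ndufb9, Cox5a, Atp5b, Atp5j and Atp5j2.

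**Figure D1:**
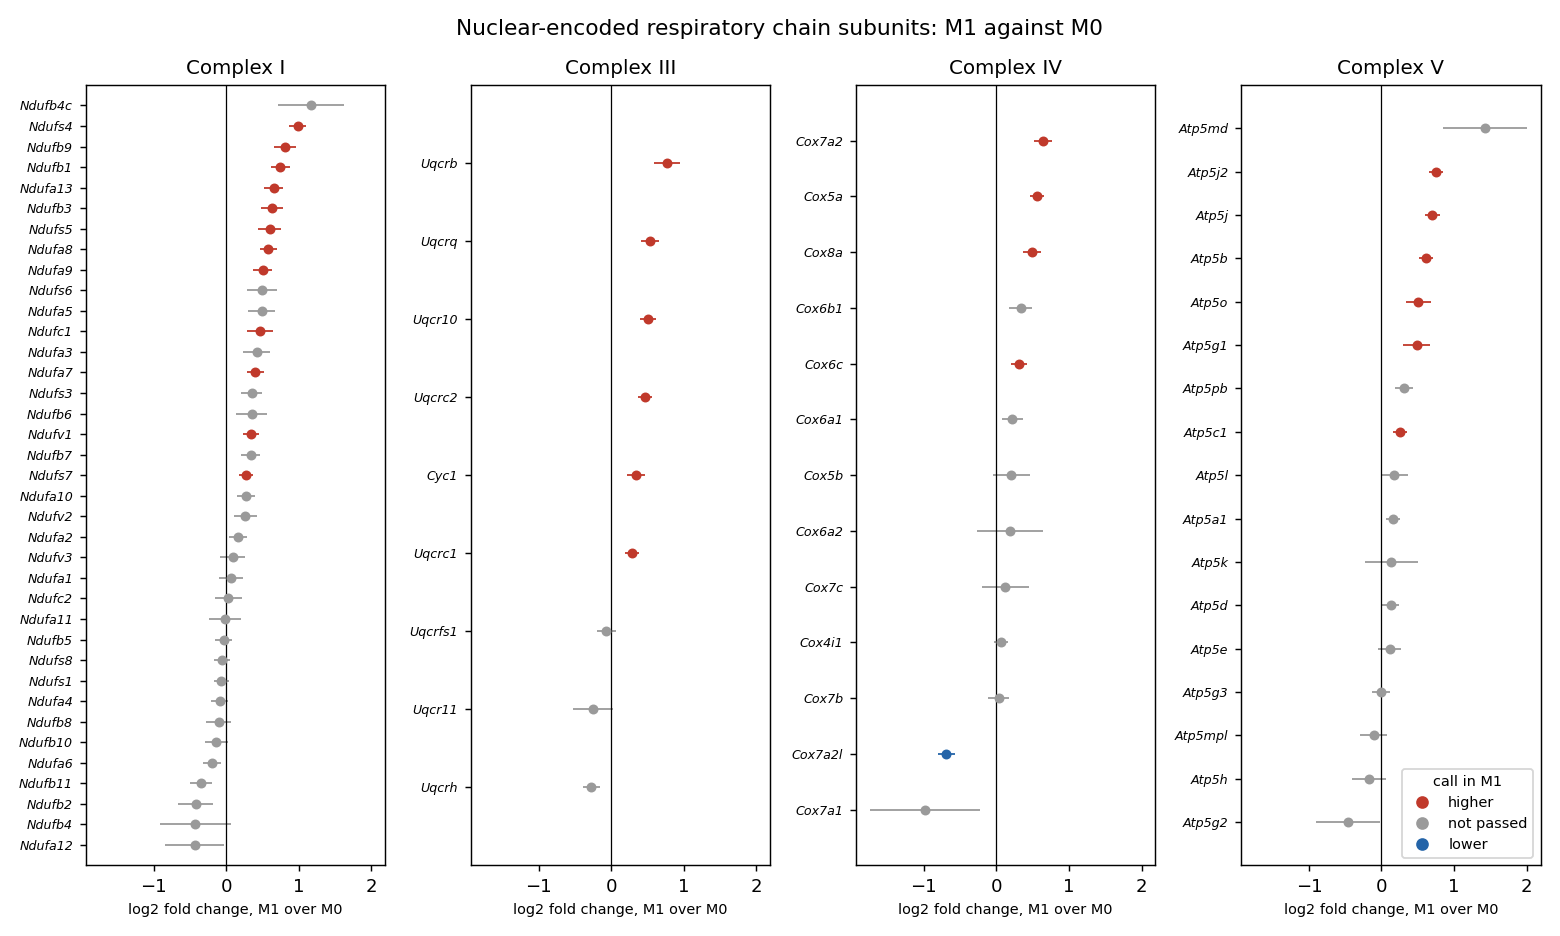
Fitted log2 fold change of M1 over M0 (x axis) for the tested members (y axis) except 1 of complex I, in 1 panel per complex, with the standard error of the fit as a horizontal bar and the call as colour. Of the points, 28 are called higher and 1, Cox7a2l in complex IV, is called lower.

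Bulk RNA cannot separate fewer cells of a type from less RNA per cell, and this holds for every level given here. Summed over members, CPM was 5547 and 5900 in the M0 libraries and 7364 and 6584 in the M1 libraries. As a share of the raw counts the members took 0.609% and 0.640% in M0 and 0.671% and 0.607% in M1, and on that scale the groups overlapped. Within M1 the first replicate lay above the second in 67 of 77 members (87.0%), against 50.2% of all tested genes. Within M0 the second replicate lay above the first in 58 members (75.3%), against 51.7% of all tested genes. The libraries of a group differed among themselves in the members' summed level.

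Complex I takes electrons from NADH and passes them to ubiquinone. Of its 38 tested nuclear subunits 12 (31.6%) were higher in M1, against 24.2% of all tested genes, none was lower, and the median log2 fold change was 0.27 (range -0.44 to 1.16). With library totals in place of TMM factors 5 were higher and 6 were lower, and the median was 0.018. Its 7 nuclear-encoded core subunits, which as a set carry the flavin and the iron-sulfur clusters, had 2 members higher, against 10 of 31 counted as accessory. The 31 include Ndufa4 and Ndufb4c, whose places in the complex are qualified below. Without M0 replicate 1 the complex had 3 subunits higher, and without M0 replicate 2 it had 5.

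Ndufs4, an accessory subunit near the NADH-oxidising module, rose most among the called members. The gene lies on the minus strand of chromosome 13, from 114287795 to 114388258 (GRCm38, GENCODE vM21). It had 38.2 and 39.1 CPM in the M0 libraries and 82.5 and 70.3 CPM in the M1 libraries. Both M1 libraries were above both M0 libraries by a margin wider than the spread within either group. The mean rose from 38.6 ± 0.671 to 76.4 ± 8.61 CPM (SD, n = 2 libraries a group here and below), a log2 fold change of 0.98 ± 0.12 (SE, edgeR adjusted p = 5.35e-05). Its adjusted p stayed at or below 0.0236 when any 1 library was left out. Relative to Ndufs1, the large core subunit with iron-sulfur clusters, Ndufs4 counts were 0.425 and 0.420 in M0 and 0.970 and 0.784 in M1. No library scaling enters such a ratio, and 2 against 2 libraries cannot give an exact permutation p below 0.333.

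The 250 bases upstream of the RefSeq start (GRCm38.p6) are shown for Ndufs4, the largest called rise, and for Ndufa8 and Ndufs5, the called members whose window held the binding letters of nuclear respiratory factor 1 (NRF1), a transcription factor known to act on many respiratory genes. Capitals mark the match on either strand to the NRF1 letters searched for, which are GCGCA, any base and GCGC. The windows follow the RefSeq start, which can lie inside the longer GENCODE gene.
Ndufs4 (chr13:114388095-114388344, minus strand): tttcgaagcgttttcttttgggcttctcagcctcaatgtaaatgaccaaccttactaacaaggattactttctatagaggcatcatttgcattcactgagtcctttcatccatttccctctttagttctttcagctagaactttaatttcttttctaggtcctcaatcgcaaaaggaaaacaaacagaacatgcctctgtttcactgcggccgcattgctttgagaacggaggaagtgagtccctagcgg
Ndufa8 (chr2:36049339-36049588, minus strand): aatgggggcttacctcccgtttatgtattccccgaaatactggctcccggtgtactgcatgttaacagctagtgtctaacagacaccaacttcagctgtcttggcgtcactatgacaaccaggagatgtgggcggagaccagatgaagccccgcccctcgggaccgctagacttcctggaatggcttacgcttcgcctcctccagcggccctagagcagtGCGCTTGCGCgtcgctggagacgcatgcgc
Ndufs5 (chr4:123718187-123718436, minus strand): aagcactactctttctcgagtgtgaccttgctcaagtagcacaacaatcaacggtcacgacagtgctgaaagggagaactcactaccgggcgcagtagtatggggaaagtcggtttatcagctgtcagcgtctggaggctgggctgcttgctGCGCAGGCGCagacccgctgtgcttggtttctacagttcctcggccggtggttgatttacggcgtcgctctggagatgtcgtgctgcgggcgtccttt

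Ndufb9, an accessory subunit of the membrane arm (chromosome 15, 58933756 to 58939488, plus strand), had 15.4 and 14.6 CPM in M0 and 26.7 and 25.8 CPM in M1. The groups did not overlap, and each pair of libraries lay close together. Its log2 fold change was 0.80 ± 0.15 (edgeR adjusted p = 0.00121), and the adjusted p stayed at or below 0.0401 when any 1 library was left out.

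Ndufb1, another membrane-arm subunit (chromosome 12, 101968090 to 101977068, minus strand), had 57.9 and 57.6 CPM in M0 and 110 and 83.8 CPM in M1. The M1 libraries were both higher, but further apart than those of M0. The log2 fold change was 0.75 ± 0.13 (edgeR adjusted p = 0.000893), and the call was lost without M0 replicate 1 (adjusted p = 0.0743) or M0 replicate 2 (adjusted p = 0.0737). GENCODE lists this locus as Ndufb1-ps with a noncoding type.

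Of the 7 core subunits, Ndufv1, which binds the flavin and oxidises NADH, rose from 65.0 ± 1.30 to 82.5 ± 4.13 CPM (log2 0.34 ± 0.11, edgeR adjusted p = 0.0209). Ndufs7, which holds the last iron-sulfur cluster before ubiquinone, rose from 78.1 ± 0.620 to 94.4 ± 3.78 CPM (log2 0.27 ± 0.10, edgeR adjusted p = 0.0482). Both calls were lost without M0 replicate 1, M0 replicate 2 or M1 replicate 1, and their adjusted p then reached 0.156 and 0.198.

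Other core subunits did not pass the test. Ndufs1 had 91.5 ± 2.35 CPM in M0 and 87.3 ± 3.31 CPM in M1. Ndufs8, which holds 2 iron-sulfur clusters, had 64.3 ± 2.87 and 62.0 ± 2.90 CPM. For Ndufv2, the partner of Ndufv1, the 2 M1 libraries differed by more than the groups did, at 100.1 and 70.9 CPM, against 64.8 and 77.6 CPM in M0. Ndufs3 had 33.2 ± 3.32 and 42.4 ± 6.50 CPM, and its counts are uncertain because 75.7% of its transcript matched another locus at 98% identity or more.

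The other accessory calls were Ndufa13 (log2 0.65), Ndufb3 (0.63), Ndufs5 (0.60), Ndufa8 (0.58), Ndufa9 (0.50), Ndufc1 (0.47) and Ndufa7 (0.40), all higher in M1. Ndufa13, known also as the cell-death regulator GRIM-19, went from 31.9 and 36.4 CPM to 56.6 and 50.9 CPM with no overlap between groups. Ndufa8 went from 60.6 and 51.6 CPM to 84.6 and 83.2 CPM, again with no overlap. Each of these 7 calls was lost in at least 1 leave-one-out fit, with the highest edgeR adjusted p running from 0.0639 for Ndufa8 to 0.445 for Ndufc1. The calls of Ndufa9 and Ndufc1 were kept in 1 of the 4 such fits. Ndufa4, which is now assigned to complex IV although its name places it here, had 75.7 ± 4.59 CPM in M0 and 71.0 ± 4.95 CPM in M1 and did not pass. The largest fitted value of the complex, 1.16 for Ndufb4c, did not pass either (edgeR adjusted p = 0.0536), rested on 1.10 to 3.57 CPM, and belongs to a locus that GENCODE lists as a processed pseudogene whose transcript matched Ndufb4 over its whole length. Ndufa4l2, a paralogue of Ndufa4 known to respond to hypoxia, was below the filter with 2, 0, 0 and 2 counts in M0 replicates 1 and 2 and M1 replicates 1 and 2.

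Complex III passes electrons from ubiquinol to cytochrome c. All 9 nuclear subunits were tested, 6 (66.7%) were higher in M1, against 24.2% of all tested genes, none was lower, and the median log2 fold change was 0.34 (range -0.27 to 0.76). With library totals in place of TMM factors 1 was higher and 1 was lower, and the median was 0.089. Without M0 replicate 1 no subunit of the complex was called higher, and without M0 replicate 2 there were 3.

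Of its catalytic subunits, Cyc1, the haem-bearing cytochrome c1 (chromosome 15, 76343523 to 76346260, plus strand), had 95.3 and 109 CPM in M0 and 144 and 115 CPM in M1. The groups did not overlap, but M1 replicate 2 stood close to M0 replicate 2. Its log2 fold change was 0.34 ± 0.13 (edgeR adjusted p = 0.0444), and the call was lost without either M0 replicate or without M1 replicate 1, with adjusted p up to 0.367. Uqcrfs1, the Rieske iron-sulfur protein, had 101 and 107 CPM in M0 and 112 and 85.9 CPM in M1. The M1 libraries lay on either side of the M0 libraries, and the gene did not pass (log2 -0.072, edgeR adjusted p = 0.681).

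The pair of large core proteins, Uqcrc1 and Uqcrc2, both rose. Uqcrc2 (chromosome 7, 120635176 to 120659524, plus strand) had 122 and 117 CPM in M0 and 160 and 170 CPM in M1, a log2 fold change of 0.46 ± 0.10 (edgeR adjusted p = 0.00243). Uqcrc1 went from 232 ± 6.71 to 283 ± 13.0 CPM (log2 0.29 ± 0.09, edgeR adjusted p = 0.0267). Without M0 replicate 1 or 2 the adjusted p of Uqcrc2 was 0.0551 or 0.0715, and that of Uqcrc1 was 0.130 or 0.181. The Uqcrc1 call was lost without M1 replicate 1 as well (adjusted p = 0.0983).

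Among the small accessory subunits, Uqcr10 (chromosome 11, 4701973 to 4704342, minus strand) had 54.2 and 57.2 CPM in M0 and 80.4 and 77.4 CPM in M1 (log2 0.50 ± 0.11, edgeR adjusted p = 0.00278). Uqcrq went from 38.0 ± 3.56 to 54.9 ± 3.94 CPM (log2 0.53 ± 0.13, edgeR adjusted p = 0.00517). Uqcrb, which binds near the ubiquinone site, went from 13.4 ± 2.16 to 22.7 ± 2.36 CPM (log2 0.76 ± 0.18, edgeR adjusted p = 0.00482), with 62.8% of its transcript shared with another locus. All 3 calls were lost without M0 replicate 1, at adjusted p of 0.0733, 0.107 and 0.0981. Uqcrh, the acidic hinge protein that meets cytochrome c1, had 100.5 and 120 CPM in M0 and 97.3 and 85.0 CPM in M1. It did not pass (log2 -0.27, edgeR adjusted p = 0.0834), although both M1 libraries were below both M0 libraries. The ratio of Uqcrb to Uqcrh counts was 0.118 and 0.125 in M0 and 0.251 and 0.247 in M1, a 2.05-fold difference in means. These 2 subunits have the highest and the lowest fitted value of the complex, so the ratio gives its widest gap and not a typical one.

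**Figure D2:**
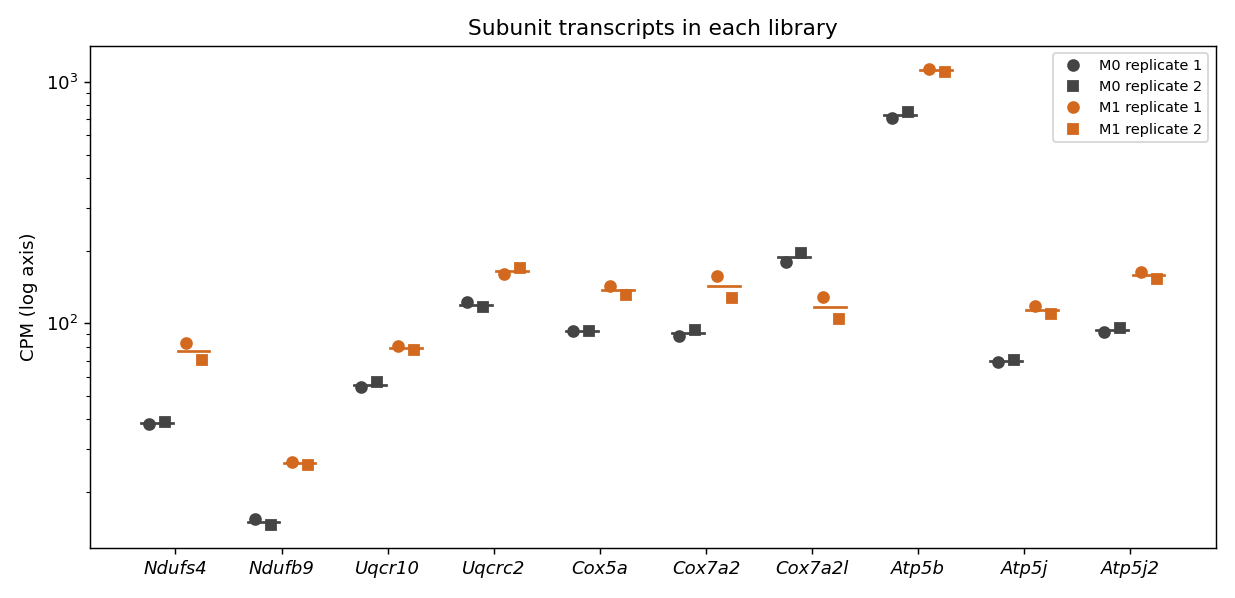
Level in CPM on a log axis (y axis) of 10 members (x axis) in each of the 4 libraries, with M0 in grey, M1 in orange, circles for replicate 1, squares for replicate 2 and a horizontal line at each group mean. For 9 of the members both M1 points lie above both M0 points, and for Cox7a2l both lie below.

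Complex IV, cytochrome c oxidase, passes electrons to oxygen, and several of its nuclear subunits exist as ubiquitous and tissue-specific isoforms. Of 13 tested members 4 (30.8%) were higher in M1, near the 24.2% of all tested genes, and 1 (7.69%) was lower, against 24.0%. The median log2 fold change was 0.21 (range -0.99 to 0.64) under TMM factors and -0.045 under library totals. Leaving out M0 replicate 1 or M0 replicate 2 left 1 subunit called higher, and without M1 replicate 1 the median was 0.042. The 4 that rose were Cox7a2, Cox5a, Cox8a and Cox6c, and all are among the 10 ubiquitous subunits.

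Cox5a, a subunit on the matrix side (chromosome 9, 57521274 to 57532426, plus strand), had 92.6 and 92.9 CPM in M0 and 142 and 131 CPM in M1. The M0 libraries were nearly equal and both M1 libraries were well above them. Its log2 fold change was 0.56 ± 0.10 (edgeR adjusted p = 0.000847), and the adjusted p stayed at or below 0.0483 when any 1 library was left out. Cox4i1, which sits beside it in the enzyme, had 225 ± 13.3 CPM in M0 and 236 ± 5.80 CPM in M1 and did not pass (log2 0.068, edgeR adjusted p = 0.590). The ratio of Cox4i1 to Cox5a counts was 2.33 and 2.52 in M0 and 1.69 and 1.77 in M1.

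Cox7a2 and Cox7a2l moved in opposite directions. Cox7a2, the ubiquitous isoform of subunit VIIa (chromosome 9, 79755361 to 79759878, minus strand), had 88.2 and 94.1 CPM in M0 and 158 and 127 CPM in M1. It rose by 0.64 ± 0.12 on the log2 scale (edgeR adjusted p = 0.00107), and the call was lost without M0 replicate 1 (adjusted p = 0.0822) or M0 replicate 2 (adjusted p = 0.0599). Cox7a2l, a related protein also called SCAF1 that is known to join complexes III and IV in supercomplexes (chromosome 17, 83501918 to 83517330, minus strand), had 180 and 196 CPM in M0 and 129 and 104 CPM in M1. Both M1 libraries lay below both M0 libraries. It fell by 0.69 ± 0.12 on the log2 scale (edgeR adjusted p = 0.000594), and the call was lost without M0 replicate 2 (adjusted p = 0.0650). Counts of Cox7a2l divided by those of Cox7a2 were 2.04 and 2.08 in M0 and 0.816 and 0.821 in M1. In M0 the library counts of Cox7a2l were above those of Cox7a2, and in M1 they were below, with a ratio of means of 0.397.

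The upstream windows of this pair are shown because they moved apart, beside that of Cox6a1, which held the most marked letters of the 3 and did not pass the test. In capitals are matches to the NRF1 letters and to CCGGAAG, the core letters bound by ETS factors such as the GA-binding protein, on either strand. The 2 matches to the first motif in Cox6a1 and its single match to the second do not overlap.
Cox7a2 (chr9:79759854-79760103, minus strand): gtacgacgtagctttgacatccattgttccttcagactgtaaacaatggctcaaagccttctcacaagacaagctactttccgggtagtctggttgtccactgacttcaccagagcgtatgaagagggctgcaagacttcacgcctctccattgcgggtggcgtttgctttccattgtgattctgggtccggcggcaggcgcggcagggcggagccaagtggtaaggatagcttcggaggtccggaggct
Cox7a2l (chr17:83514334-83514583, minus strand): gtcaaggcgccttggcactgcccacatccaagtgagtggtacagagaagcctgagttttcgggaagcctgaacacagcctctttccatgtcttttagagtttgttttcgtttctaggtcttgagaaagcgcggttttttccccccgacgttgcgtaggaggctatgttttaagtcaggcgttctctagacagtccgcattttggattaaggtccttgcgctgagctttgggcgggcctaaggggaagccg
Cox6a1 (chr5:115348959-115349208, minus strand): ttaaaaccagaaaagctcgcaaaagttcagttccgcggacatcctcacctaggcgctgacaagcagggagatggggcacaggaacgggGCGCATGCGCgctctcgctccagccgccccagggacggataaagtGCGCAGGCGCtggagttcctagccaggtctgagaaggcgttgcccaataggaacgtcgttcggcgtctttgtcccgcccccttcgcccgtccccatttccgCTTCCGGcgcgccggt

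Cox8a rose from 98.8 ± 14.5 to 139 ± 16.6 CPM (log2 0.49 ± 0.13, edgeR adjusted p = 0.00827). Cox6c rose from 83.4 ± 6.24 to 104 ± 11.6 CPM (log2 0.31 ± 0.12, edgeR adjusted p = 0.0457). Both calls were lost without M0 replicate 1 or M0 replicate 2, with adjusted p up to 0.182 and 0.323, and that of Cox6c without M1 replicate 1 also (adjusted p = 0.246). Cox6a1, the ubiquitous isoform of subunit VIa, had 114 and 143 CPM in M0 and 171 and 130 CPM in M1, so the groups overlapped.

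The alternative isoforms stood at the bottom of the complex. Cox6a2, the heart and muscle partner of Cox6a1, had 2.01 and 1.97 CPM in M0 and 2.83 and 1.72 CPM in M1. Cox7a1, the heart and muscle partner of Cox7a2, had 16 and 10 counts in M0 and 4 and 7 in M1 and did not pass (log2 -0.99, edgeR adjusted p = 0.313). Cox4i2, the isoform of Cox4i1 known from lung and from hypoxia, had 12 and 0 counts in M0 and 4 and 6 in M1 and was below the filter. Cox6b2, the testis isoform of Cox6b1, had 24 and 0 counts in M0 and 4 and 0 in M1 and was below it too. For both of these genes all M0 counts came from replicate 1.

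Complex V, ATP synthase, couples a rotating ring in the membrane to a catalytic head in the matrix. All 17 nuclear members were tested, and 6 (35.3%) were higher in M1, against 24.2% of all tested genes. None was lower, against 24.0%. The median log2 fold change was 0.18 (range -0.46 to 1.42) under TMM factors and -0.074 under library totals. Without M0 replicate 1 or M0 replicate 2, 3 members were called higher, and without M1 replicate 1 the median was 0.11. In the head and central stalk 2 of 5 rose, in the peripheral stalk 2 of 4, in the membrane ring 1 of 3 and among the other membrane subunits 1 of 5.

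Atp5b, the catalytic beta subunit (chromosome 10, 128083273 to 128090391, plus strand), had 712 and 751 CPM in M0 and 1135 and 1102 CPM in M1. The groups were far apart and each pair was close together. The mean went from 731 ± 27.3 to 1118 ± 22.8 CPM, a log2 fold change of 0.61 ± 0.09 (edgeR adjusted p = 0.000226), and the adjusted p stayed at or below 0.0300 when any 1 library was left out. Atp5a1, the alpha subunit that alternates with beta in the head, had 771 and 782 CPM in M0 and 902 and 829 CPM in M1. Its M1 libraries were both higher, but it did not pass (log2 0.16 ± 0.09, edgeR adjusted p = 0.189). The ratio of Atp5b to Atp5a1 counts was 0.924 and 0.960 in M0 and 1.26 and 1.33 in M1, so Atp5b was below Atp5a1 in both M0 libraries and above it in both M1 libraries. Atp5c1, the gamma subunit of the rotating stalk, went from 216 ± 5.43 to 259 ± 19.9 CPM (log2 0.26 ± 0.10, edgeR adjusted p = 0.0482) and lost its call without M0 replicate 1, M0 replicate 2 or M1 replicate 1, with adjusted p of 0.181 to 0.256.

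Atp5j, coupling factor 6 of the peripheral stalk (chromosome 16, 84827866 to 84835625, minus strand), had 69.3 and 70.5 CPM in M0 and 118 and 109 CPM in M1. It rose by 0.70 ± 0.10 on the log2 scale (edgeR adjusted p = 0.000220, at most 0.0311 without any 1 library). Atp5j2, the f subunit in the membrane (chromosome 5, 145183698 to 145192062, minus strand), had 91.9 and 96.0 CPM in M0 and 163 and 153 CPM in M1. Its rise was 0.75 ± 0.10 on the log2 scale (edgeR adjusted p = 9.24e-05, at most 0.0245 without any 1 library). For both genes the libraries of a group lay close together and the groups did not overlap. Atp5o, which confers sensitivity to oligomycin, went from 15.5 ± 1.70 to 22.0 ± 3.17 CPM (log2 0.51 ± 0.17, edgeR adjusted p = 0.0328). Its counts are uncertain because the GENCODE gene taken for it spans chromosome 16 from 91684398 to 91926982 with a transcript of 530 bases. Of the exons of that model 54.1% overlap Donson on the same strand. Whether the deposited counts used the model is not given. The Atp5o call was lost without M0 replicate 1, M0 replicate 2 or M1 replicate 2.

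The c-ring subunit is made from 3 genes that encode the same mature protein. Atp5g3 had 139 ± 1.12 CPM in M0 and 138 ± 23.8 CPM in M1 and did not pass. Atp5g1 went from 10.7 ± 0.462 to 14.9 ± 0.777 CPM (log2 0.49 ± 0.18, edgeR adjusted p = 0.0474), a call that was lost whichever library was left out (adjusted p 0.0707 to 0.185). Atp5g2, with 88.2% of its transcript shared with another locus, had 2.38 ± 0.318 and 1.72 ± 0.262 CPM and did not pass. The largest fitted value of the complex, 1.42 ± 0.58 for the small membrane subunit Atp5md, did not pass (edgeR adjusted p = 0.0639) and rested on 0.521 to 2.52 CPM.

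Levels of different genes were compared per kb of principal transcript. In M0 the highest members were Atp5b at 382 CPM per kb, Atp5a1 at 314 and Cox4i1 at 294, followed by Cox6a1 at 226, Atp5mpl at 224 and Uqcrh at 202. By complex the median level in M0 was 31.7 CPM per kb for complex I, 67.2 for complex III, 138 for complex IV and 89.8 for complex V. The lowest tested members were Cox7a1 at 1.71, Ndufb4 at 2.04, Atp5md at 2.18, Atp5g1 at 2.27 and Ndufb2 at 2.45 CPM per kb. Ndufb4 shared 40.2%, Atp5md 48.1% and Atp5g1 8.72% of the transcript with another locus, and Cox7a1 and Ndufb2 shared none. For Ndufb2 and Atp5g1 the level was divided by long principal transcripts, of 4371 and 4715 bases. Cox5b and Cox7c, ubiquitous subunits with copies elsewhere in the genome, had 6.85 and 6.88 CPM per kb. Of the tested members, 14 shared at least 30% of their transcript with another locus at 98% identity or more, a threshold chosen after the values were seen. Their median level in M0 was 10.0 CPM per kb, against 63.0 for the other 63. Of the 14, 2 were higher in M1, and of the 63, 26 were, where 24.2% of all tested genes were higher. Low counts leave wider standard errors on the log2 scale, such as 0.48 for Ndufb4 against 0.09 for Atp5b. The part of this in the 2 numbers of calls was not tested. How reads with several possible origins were counted is not given in the sources used here, so levels of such members are uncertain.

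**Figure D3:**
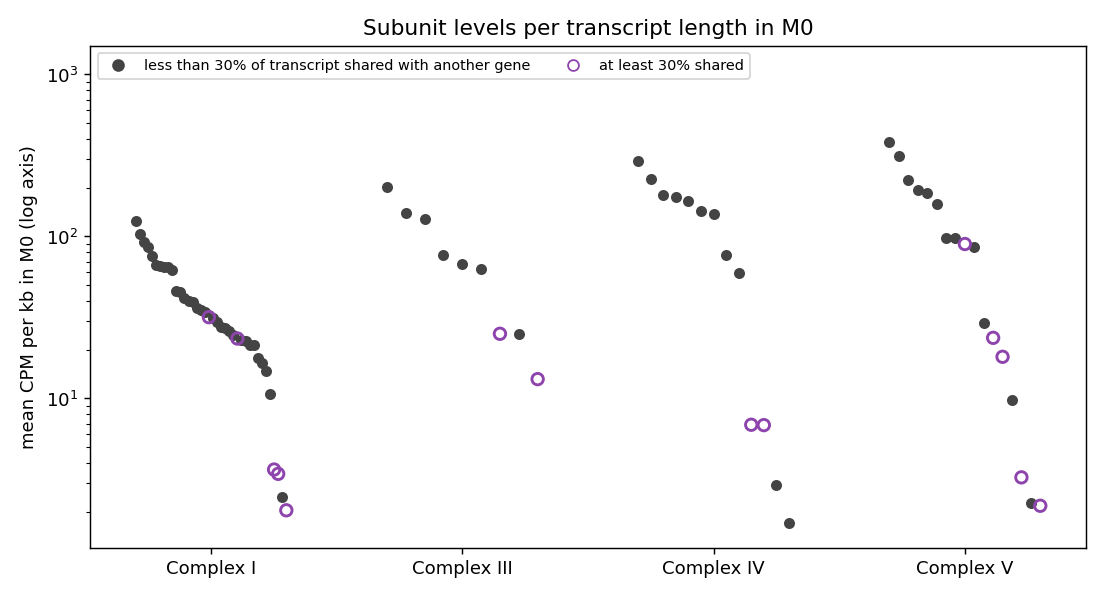
Mean M0 level of each tested member per kb of transcript on a log axis (y axis), by complex and ordered within it (x axis), with members that share at least 30% of their transcript with another locus as open circles. The open circles have a median of 10.0 CPM per kb and the filled ones of 63.0.

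All 12 tested mitochondrially encoded subunits of the same complexes were lower in M1, against 24.0% of all tested genes, with log2 fold changes from -1.54 to -0.65. The other one listed, ATP8, was below the filter with 7 and 5 counts in M0 and 6 and 13 counts in M1. COX1, the catalytic core of complex IV, had 9085 and 9693 CPM in M0 and 5729 and 5751 CPM in M1 (log2 -0.71, edgeR adjusted p = 5.97e-05). CYTB, the mitochondrial subunit of complex III, had 2307 and 2769 CPM in M0 and 1332 and 1020 CPM in M1 (log2 -1.11, edgeR adjusted p = 4.81e-05). The calls of ND1, COX2 and ATP6 were lost without M0 replicate 2, with adjusted p of 0.143, 0.137 and 0.0521. The call of ND4L, with 15 to 101 counts, was lost without either M0 replicate or M1 replicate 1 (adjusted p up to 0.208). ND6, which is counted among the 12 and in the ratios below, lies opposite other mitochondrial transcripts. Without strand its reads and theirs cannot be told apart.

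Within each library, nuclear subunit counts were divided by mitochondrial subunit counts, a ratio that no scaling enters. Over all 4 complexes the ratio was 0.281 and 0.271 in M0 and 0.613 and 0.604 in M1, a 2.20-fold difference in means. For complex I it was 0.173 and 0.165 in M0 and 0.380 and 0.408 in M1 (2.33-fold). For complex III it was 0.331 and 0.288 in M0 and 0.730 and 0.868 in M1 (2.58-fold). In complex IV the ratio went from 0.105 and 0.110 to 0.215 and 0.183 (1.85-fold). In complex V it went from 47.9 and 41.9 to 97.8 and 105 (2.25-fold). The complex V ratio rests on ATP6, with 452 to 1044 counts a library, and ATP8, with 5 to 13, where COX1 had 93074 to 189518. Copies of the mitochondrially encoded genes were not searched for, and the treatment of reads with several origins is not given. The size of each ratio, and differences in size between complexes, are therefore uncertain. For each complex both M1 libraries lay above both M0 libraries, and the smallest exact permutation p that 2 against 2 libraries allow is 0.333.

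**Figure D4:**
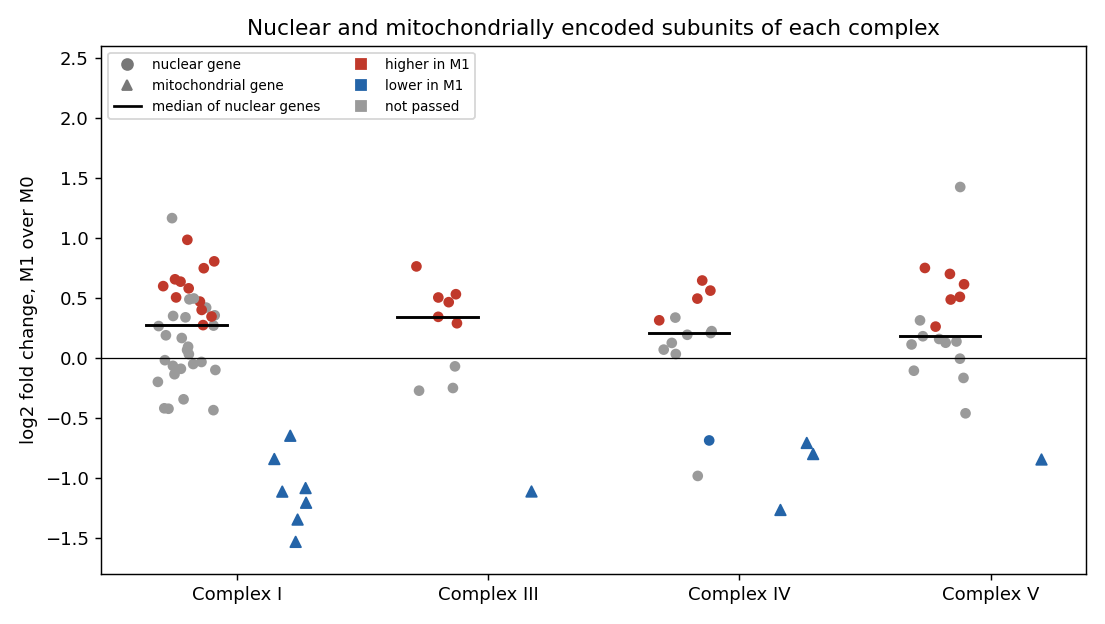
Fitted log2 fold change of M1 over M0 (y axis) of nuclear (circles) and mitochondrially encoded (triangles) subunits by complex (x axis), coloured by call, with a black line at the median of the nuclear genes. All 12 triangles lie between -1.54 and -0.65, and the nuclear medians lie between 0.18 and 0.34.

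Promoter windows were searched for the letters bound by 3 factors known to act on respiratory genes. RefSeq windows of 250 bases before the start were found for 64 members. The NRF1 letters (GCGCA, any base, GCGC) were present on either strand in 10 of them (15.6%), against 3.74% of all 32851 RefSeq windows of that length. The ETS letters CCGGAAG were present in 10 (15.6%), against 6.91%. The letters of the factor YY1 (AAGATGG followed by CGG) were in no member window, against 0.301% of all. Of the 22 members called higher with a window, 2 held the NRF1 letters (Ndufa8 and Ndufs5) and none the ETS letters, while of the 40 tested members that were not called 8 held the first and 10 the second. A match describes letters only and was not tested as a site.

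The other genes of the pathway were counted in lists written with earlier results of these data known. Among the subunits of complex II, succinate dehydrogenase, which is encoded wholly in the nucleus, 2 of 4 were higher and none lower. Of all tested genes 24.2% were higher and 24.0% lower. Sdhb, its iron-sulfur subunit, went from 159 ± 3.17 to 243 ± 27.0 CPM (log2 0.61, edgeR adjusted p = 0.000630), and the call was lost without M0 replicate 2 (adjusted p = 0.0570). Sdha, the flavin subunit, had 231 and 218 CPM in the group means and did not pass. The ratio of Sdhb to Sdha counts was 0.709 and 0.666 in M0 and 1.22 and 1.01 in M1.

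Assembly factors for complex IV had 8 of 22 tested genes higher (36.4%) and none lower, where 24.2% of all tested genes were higher and 24.0% lower. The largest were Coa5 (171 ± 4.37 to 441 ± 20.2 CPM, log2 1.36), Cox18, which inserts the mitochondrial COX2 protein in the membrane (log2 1.19), and Cox19 (log2 0.93), with edgeR adjusted p of 5.05e-07, 2.64e-05 and 0.00187. The Cox19 call was lost without M0 replicate 1 (adjusted p = 0.0850). For complex III, 3 of 6 were higher and none lower, led by Uqcc2 (log2 0.79, edgeR adjusted p = 0.000830). Complex I assembly genes had 3 of 17 higher (17.6%, under the share of all tested genes) and 2 lower, with Ndufaf3 (log2 1.51, edgeR adjusted p = 2.50e-05) and Dmac2 (log2 -0.89, edgeR adjusted p = 0.00113) at the ends. For complex II, 1 of 4 was higher, and for complex V none of 5 was called.

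Of the carriers and other electron entry enzymes, 1 of 8 was higher (12.5%, against 24.2% of all tested genes) and 3 were lower (37.5%, against 24.0%). Gpd2, which passes electrons from glycerol 3-phosphate to ubiquinone, went from 51.5 ± 1.54 to 145 ± 19.7 CPM (log2 1.49, edgeR adjusted p = 1.64e-06). Suox, sulfite oxidase, fell by 2.28 (edgeR adjusted p = 0.000155), and Prodh and Etfdh fell by 1.28 and 0.58 (adjusted p = 0.0103 and 0.00335). The Prodh call was lost without M0 replicate 1 or 2 (adjusted p up to 0.142) and that of Etfdh without M0 replicate 2 (0.0657). Cycs, cytochrome c, had 6.52 ± 0.536 and 9.32 ± 3.35 CPM and did not pass. In coenzyme Q synthesis, 3 of 13 were higher (23.1%, near the share of all tested genes), with Coq2 at log2 0.71 (edgeR adjusted p = 0.000732, 0.0525 without M0 replicate 2), and 1 was lower, Coq10a at log2 -1.21 (edgeR adjusted p = 0.000254). Ndufab1 and Atpif1, the ATP synthase inhibitor, are subunits or partners outside the symbol rule, and neither passed.

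Regulators of respiratory genes had 6 of 14 higher (42.9%, against 24.2% of all tested genes) and 2 lower (14.3%, against 24.0%). Hif1a, the hypoxia-inducible factor, went from 138 ± 2.41 to 452 ± 28.5 CPM (log2 1.72, edgeR adjusted p = 9.08e-08). Esrra, an oestrogen-related receptor that acts on respiratory genes, went from 24.9 ± 0.282 to 55.2 ± 6.33 CPM (log2 1.15, edgeR adjusted p = 3.03e-05), and Perm1 rose by 2.16 on the log2 scale (edgeR adjusted p = 2.75e-05). Nrf1 itself had 32.9 CPM in M0 and 40.4 CPM in M1 and did not pass (edgeR adjusted p = 0.0864). Gabpa, the ETS subunit of the GA-binding protein, fell by 0.41 (edgeR adjusted p = 0.00888) and lost its call without M0 replicate 1 or 2 (adjusted p up to 0.0949), and Gabpb2 fell by 0.30 (edgeR adjusted p = 0.0433), lost without either M0 replicate or M1 replicate 1 (up to 0.314). Gabpb1, a beta subunit of the same protein, was higher (log2 0.51, edgeR adjusted p = 0.00684), and its call was lost without M0 replicate 1 or 2 (adjusted p up to 0.0986) and with library totals. Ppargc1a, the coactivator PGC-1alpha, had 0, 0, 0 and 2 counts and was below the filter.

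Several subunit genes start head to head with another gene. For 27 of 80 members a coding gene on the opposite strand started within 1000 bases. Among the 9 called members whose partner was tested, 1 partner was higher, 1 was lower and 7 did not pass. The partner that was lower is Gabpa, which starts 700 bases from Atp5j. The ratio of Atp5j to Gabpa counts was 0.967 and 0.960 in M0 and 2.19 and 1.97 in M1, a 2.16-fold difference in means. Cpsf2, a cleavage and polyadenylation factor that starts 266 bases from Ndufb1, was higher with it (log2 0.52, edgeR adjusted p = 0.00367, and up to 0.118 without M0 replicate 1 or 2). Gabpa overlaps 12.68% of the exons of Atp5j on the opposite strand, and Cpsf2 overlaps 12.75% of those of Ndufb1. The strand setting of the counts is not given, so reads in these overlaps cannot be assigned to either gene. Over all 25 tested partners 2 were higher and 6 were lower, against 24.2% and 24.0% of all tested genes.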

How the data were processed

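Trizol-extracted, DNase-treated total RNA of 2 M0 and 2 M1 samples was freed of ribosomal RNA, per the labels' protocols. The authors deposited raw read counts per gene symbol. The submitters' processing notes name the genome build mm10, featureCounts from Subread 2.0.1, DESeq2 1.30.1 and R 4.0.4. The annotation, the strand setting and the treatment of reads with several origins are not given in the sources used here.

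Genes were kept by filterByExpr (minimum count 10, minimum total 15), which left 12966 of 18256, of which 943 had no count. TMM factors were 1.10 and 1.08 for M0 and 0.911 and 0.922 for M1. The groups were compared with the quasi-likelihood test of edgeR 4.0.16 in R 4.3.3, with group as the single term. Genes were called at a Benjamini-Hochberg adjusted p under 0.05 over all genes tested. Common dispersion was 0.0118, with 2 residual degrees of freedom. CPM values are means ± SD of 2 libraries. The fit was tested on counts simulated at the common dispersion. It recovered 21 of 67 genes changed by 0.5 on the log2 scale and 66 of 67 changed by 1. A member that did not pass may therefore still differ by as much as most members did. Replicate libraries were further apart than sampling noise allows (chi-square over degrees of freedom 8.78 in M0 and 12.6 in M1).

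Positions, transcript lengths and near-identical copies (blastn, at least 98% identity) came from GENCODE vM21 on GRCm38, the assembly that mm10 names, where all 80 members were found. A member is called uncertain where a copy shares at least 50% of its transcript or another gene overlaps at least 50% of its exons. Promoter sequences are RefSeq's, from GRCm38.p6.

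Alternatives were DESeq2 1.42.0, limma-voom (limma 3.58.1), scaling by library totals, RLE or upper-quartile factors, other count filters, a block on the replicate number, thinning, a threshold of 0.01 and each library left out. Members, lists and the naming rule were chosen with earlier results of these data known. The naming rule takes, per complex, up to 3 called members with the largest rise and fall at 10 CPM or more, the core and catalytic subunits, isoform pairs, the c-ring and members below the filter, and up to 3 called genes a list with any called against most of it. A single complex I member is counted in the totals and not reported by name here. The other members named, the neighbours and AA467197 were chosen after their values were seen.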

Additional observations from a re-analysis of the deposited data

How the results depend on the processing

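No member's call changed sign under any alternative. With upper-quartile factors 18 members were higher and 3 lower, 1 complex I and 1 complex III member were lower, 3 complex V members were higher, and the medians were 0.16 (all members) and 0.17 (complex I). With library totals 2024 genes were higher and 4776 lower, members were 11 higher and 8 lower, and by complex 5 higher and 6 lower (I), 1 and 1 (III), 2 higher (IV) and 3 higher (V). The medians were then 0.012 (all), 0.018 (I), 0.089 (III), -0.045 (IV) and -0.074 (V), the last 2 reversed by the shift of all genes. At adjusted p under 0.01, 18 members were higher, 3 of them in complex V. DESeq2 called 23 members higher and 1 lower, and limma-voom 29 and 1. Without the 8 uncertain members, an alternative added after seeing the data, 26 were higher and 1 lower. With the replicate number as a block, 23 members were higher and 1 lower, and 2957 and 2974 of all genes. The samples share a replicate number, and nothing says that the numbers pair them. Deviations from the group mean correlated at -0.0757 between M0 replicate 1 and M1 replicate 1, which cannot show whether the libraries are paired.

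Leaving out each library in turn gave 1691 to 2966 genes higher and 1463 to 2855 lower, with 7 to 32 members higher and 0 to 4 lower. By complex, 3 to 15 (I), 0 to 6 (III), 1 to 6 (IV) and 3 to 5 (V) were higher and 0 to 1 lower in each. The medians ran from 0.17 to 0.36 (all), 0.18 to 0.33 (I), 0.24 to 0.44 (III), 0.042 to 0.42 (IV) and 0.11 to 0.36 (V). The cause of these shifts was not tested. With 2 libraries a group, changes as small as those of most members are near the limit of the test, and the few counts of isoforms below the filter set no direction.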

Other observations

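AA467197, the mouse orthologue of human C15orf48 (NMES1) and a paralogue of Ndufa4, lies outside the symbol rule and was chosen after its values were seen. It had 5 and 10 counts in the M0 libraries and 582 and 446 in the M1 libraries. The mean went from 0.410 ± 0.240 to 31.6 ± 5.93 CPM (log2 6.30 ± 0.32, edgeR adjusted p = 3.54e-08, at most 0.00234 without any 1 library). Both M1 libraries stood far above both M0 libraries, and the M0 level is near that of a few counts. Relative to Ndufa4 its counts were 0.00331 and 0.00734 in M0 and 0.481 and 0.406 in M1, while Ndufa4 itself did not pass the test. Nupr1, a stress-linked regulator listed with the alternative isoforms, went from 8.40 ± 2.87 to 34.9 ± 0.581 CPM (log2 2.07, edgeR adjusted p = 1.24e-05).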
